A study of Homo sapiens with 11 samples.

Results

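BLOC1S1, SPARC, SCARA3, COL6A1 and HGSNAT are 5 genes whose mRNAs have been reported as targets of IRE1-dependent mRNA decay. They were taken by name from the deposited gene table of a study in HEK293T, a cell line derived from human embryonic kidney, and all 5 were found among its 38021 gene names. All 5 passed the filter on low counts, which kept 17793 genes. Total RNA from wild-type cells was sequenced after 6 h in 11 conditions. These were vehicle (0.1% DMSO), thapsigargin (Tg) at 500 nM, the compound AA147 at 10 µM, and the compound AA132 at 0.1, 0.3, 1, 3, 6, 10, 15 or 30 µM. Each condition has 1 listed sample and 3 numbered columns in the table, and n counts these columns, called libraries here. The labels do not say whether they came from separate cultures, so p-values measure only the spread between columns, which may be technical.

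IRE1, encoded by ERN1, is a kinase and endoribonuclease of the endoplasmic reticulum (ER) membrane that becomes active when unfolded proteins accumulate in the ER. It cuts the XBP1 mRNA at a pair of small stem-loops, and the ligase RTCB joins the ends into the mRNA of the transcription factor XBP1s. The same nuclease can cut other mRNAs, mostly those translated at the ER, whose pieces are then degraded by XRN1 and by the exosome with the SKI complex. Thapsigargin blocks the pump that fills the ER with calcium and is a standard ER stressor. AA147 and AA132 are compounds studied as activators of ER stress signalling.

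The sites at which a decay substrate can be compared with XBP1 are its stem-loops. Each transcript, on its own strand only, was searched for a loop of 7 bases reading CNGCAGN closed by at least 4 consecutive Watson-Crick pairs. The shorter word CTGCAG, its own reverse complement, overlaps that loop wherever the second base is T. BLOC1S1 and COL6A1 held 1 such stem-loop each in their canonical transcript, and the unspliced XBP1 transcript held 2. They are printed 5′ to 3′ from the GENCODE v44 transcripts on GRCh38, with the loop in capitals and 11 bases on either side.
BLOC1S1 stem-loop: acaaagggcagCTGCAGTctgccccttcc
COL6A1 stem-loop: gcggcacgggcCAGCAGCgcccagagcgg
XBP1 stem-loop at the 5′ splice site: gtctgctgagtCCGCAGCactcagactac
XBP1 stem-loop at the 3′ splice site: tacgtgcacctCTGCAGCaggtgcaggcc
The BLOC1S1 loop lies at chr12:55719589-55719595 on the plus strand, in the coding part of exon 4, and is closed by 6 pairs. The COL6A1 loop lies at chr21:46003573-46003579 on the plus strand, in the coding part of exon 35, and is closed by 4 pairs. The XBP1 loops, at chr22:28796149-28796155 and chr22:28796123-28796129 on the minus strand, are closed by 6 and 7 pairs. They show the form that the nuclease is known to cut.

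Among 19701 canonical coding transcripts, 3.57% held at least 1 stem-loop of this form and 0.254% held 1 with at least 6 pairs. Among the 325 transcripts within 10% of the length of BLOC1S1, itself included, 4 (1.23%) held any, BLOC1S1 being 1 of them. The 1 transcript (0.308%) with 6 pairs or more was BLOC1S1 itself. For COL6A1 the share among 1919 transcripts of like length, COL6A1 included, was 4.64%. SPARC, SCARA3 and HGSNAT had no loop with 4 pairs in these transcripts, although they held the word CTGCAG 2, 8 and 6 times. That word was in 82.2% of all canonical coding transcripts. A match is a description of letters, and its absence says only that these letters are not in these transcripts.

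Under Tg, 3 of the 5 genes were lower than in vehicle (SCARA3, COL6A1 and SPARC), HGSNAT was higher, and BLOC1S1 as listed did not pass the test. The background in this comparison was large: 31.2% of all genes tested were called, 15.0% lower and 16.2% higher, by the quasi-likelihood test of edgeR at a Benjamini-Hochberg adjusted p under 0.05. The median log2 fold change of the 5 genes was -0.17, against 0.005 over all genes tested. Levels are given in CPM, library-size-scaled counts adjusted with TMM factors, and every adjusted p comes from that test unless another is named. Library totals ran from 32.27 to 37.96 M counts, and the 5 genes had between 275 and 4743 counts in a library. Their median coefficient of variation within conditions was from 3.5% for SPARC to 20.1% for BLOC1S1.

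SCARA3, a member of the class A scavenger receptor family, fell furthest. Its level was 17.0, 18.5 and 19.8 CPM in the vehicle libraries and 10.1, 11 and 8.96 CPM in the Tg libraries. The highest Tg library was below the lowest vehicle library. The log2 fold change was -0.88 (SE 0.094, adjusted p = 4.03e-09), so that the fitted level fell by 45.6%.

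Across the AA132 doses every mean of SCARA3 was above that of vehicle. All doses were set against the same 3 vehicle libraries, so these differences are not independent of each other. From the lowest dose to the highest its means were 20.3 ± 1.7, 20.9 ± 1.79, 20.9 ± 1.21, 21.6 ± 1.51, 23.3 ± 1.36, 22.3 ± 1.91, 22.9 ± 1.68 and 19.2 ± 0.779 CPM (SD, n = 3), against 18.5 ± 1.4 in vehicle and 17.2 ± 0.404 under AA147. At 1, 3, 6, 10 and 15 µM all 3 libraries lay above all 3 vehicle libraries, but none of these differences passed the test. The nearest were 6 µM, with a log2 fold change of 0.34 (SE 0.09, adjusted p = 0.0579), and 15 µM, with 0.31 (SE 0.09, adjusted p = 0.0508). Those 2 fall on either side of the threshold with the tool: DESeq2 gave adjusted p = 0.013 and 0.0168, and limma-voom 0.0498 and 0.0462. Over 40 alternative settings the adjusted p ran from 0.013 to 0.496 at 6 µM, with 4 settings past the threshold, and from 0.0168 to 0.495 at 15 µM, with 10 past it. Of these settings, 33 left out 1 library each, in most cases from a condition outside the comparison. Leaving out 10 µM library 1 or 3 brought 6 µM past the threshold. For 15 µM the same 2 libraries did so, as did 0.1 µM library 1, 0.3 µM library 1, 15 µM library 2, Tg library 2 and vehicle library 3. In the order of the 11 means, the step from AA147, the second lowest, down to Tg was the one step at which the libraries of neighbours did not overlap. The gene lies at chr8:27633868-27676776 on the plus strand of GRCh38.

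COL6A1 encodes the alpha 1 chain of collagen VI, a beaded-filament collagen of the extracellular matrix made in the ER. It was at 44.7, 33.9 and 38.7 CPM in vehicle and at 24.3, 28.0 and 25.9 CPM under Tg, again without overlap. The log2 fold change was -0.58 (SE 0.099, adjusted p = 2.01e-05), so that the fitted level fell by 33.3%. The vehicle libraries were spread more widely than those of Tg, with an SD of 5.43 against 1.84 CPM.

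In every other condition the COL6A1 mean stayed between 38.7 and 43.9 CPM. It was 39.1 ± 5.43 CPM in vehicle (SD, n = 3), 26.1 ± 1.84 under Tg and 39.3 ± 5.92 under AA147. With rising AA132 dose it was 38.9 ± 3.51, 39.2 ± 0.37, 40.1 ± 0.597, 42.6 ± 2.46, 43.9 ± 3.06, 41.2 ± 4.06, 41.4 ± 2.45 and 38.7 ± 2.94 CPM. No AA132 dose passed the test, and the 95% interval of the log2 fold change at 30 µM ran from -0.21 to 0.18. As for SCARA3, the step down to Tg was the one step between neighbouring means at which libraries did not overlap. The gene lies at chr21:45981770-46005050 on the plus strand.

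SPARC, a secreted glycoprotein that binds collagens and calcium, had the highest level per length of the 5 genes as listed, at 33.8 CPM per kb of transcript over all libraries. The BLOC1S1 row was at 24.6 CPM per kb, but part of its reads may be counted in a second row described below. The fall of SPARC under Tg was small: 115.1, 115.7 and 122.8 CPM in vehicle against 102.1, 110.4 and 104.1 CPM. All Tg libraries were below all vehicle libraries, with a log2 fold change of -0.16 (SE 0.058, adjusted p = 0.0334), so that the fitted level fell by 10.5%. This call was the least secure of the 3, since it was lost without Tg library 1 (adjusted p = 0.0926), Tg library 3 (0.0643) or vehicle library 3 (0.133). It was also lost with no filter on low counts (0.109) or with only vehicle and Tg in the fit (0.172). Over 40 alternative settings its adjusted p ran from 0.00864 to 0.172, and 35 kept the call.

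Under AA147 the mean of SPARC was 122.6 ± 7.61 CPM (SD, n = 3). Over the 8 doses of AA132, from low to high, it was 119.0 ± 2.1, 115.4 ± 0.14, 116.9 ± 2.44, 110.0 ± 2.46, 119.8 ± 4.15, 117.6 ± 9.91, 119.8 ± 0.979 and 119.2 ± 4.36 CPM. The dose of 3 µM was the one at which all libraries (107.3 to 112.1 CPM) were below vehicle, yet its log2 fold change of -0.10 did not pass the test (adjusted p = 0.614). Among neighbours in the order of means, 0.3 and 3 µM were the one pair whose libraries did not overlap. The gene lies at chr5:151661096-151686975 on the minus strand.

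**Figure D1:**
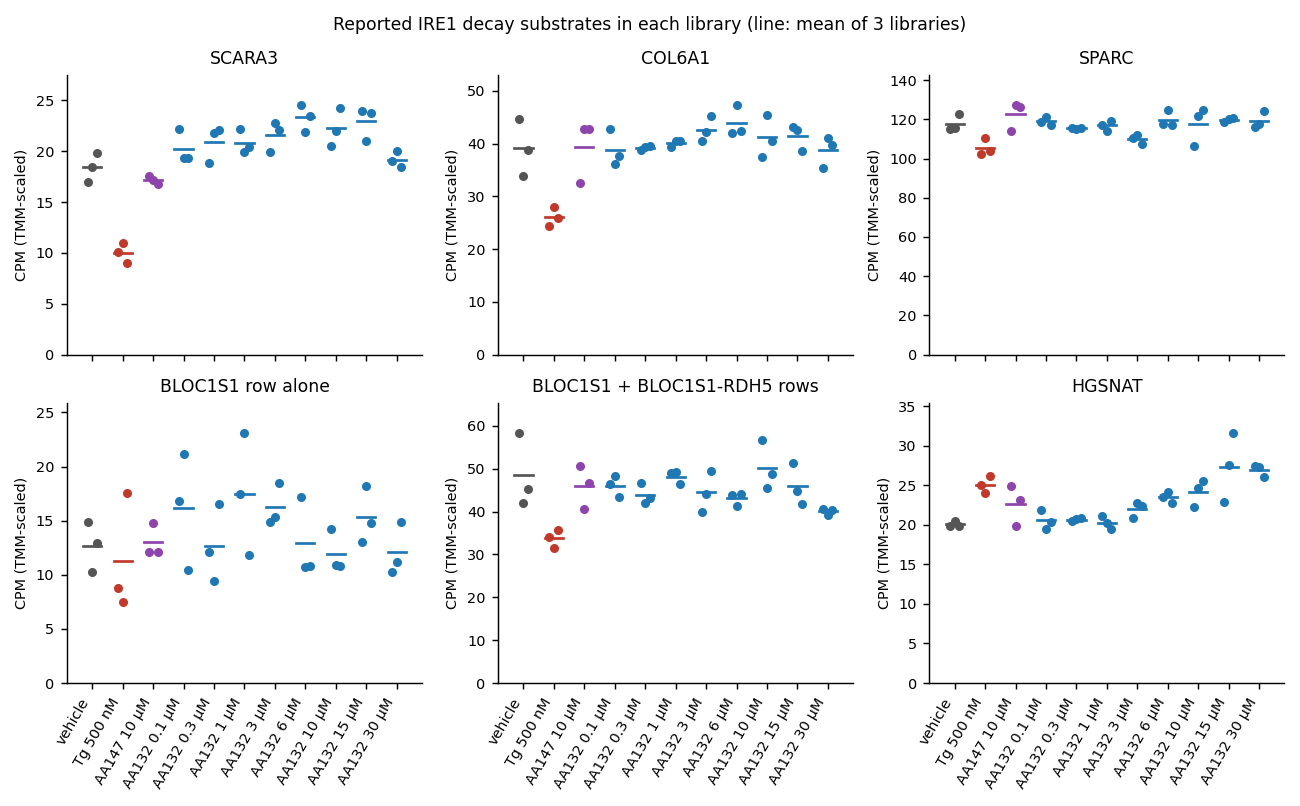
CPM of each gene in the 33 libraries, with 1 point per library, a line at the mean of 3 libraries and every vertical axis starting at 0. SCARA3 and COL6A1 are lowest in the Tg libraries (8.96 to 11 and 24.3 to 28.0 CPM), the BLOC1S1 row is scattered within conditions, and HGSNAT is highest at 15 and 30 µM AA132 (22.9 to 31.6 CPM).

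BLOC1S1 encodes a subunit shared by the BLOC-1 and BORC complexes, which act in the making and positioning of lysosomes and related organelles, and its mRNA is widely used as a reading of IRE1-dependent decay. As listed, it did not pass the test in any comparison. It was at 14.9, 10.3 and 12.9 CPM in vehicle and at 8.8, 7.51 and 17.6 CPM under Tg, so that 2 Tg libraries were below all vehicle libraries and the other was above them. The log2 fold change was -0.17 with a 95% interval from -0.71 to 0.38 (adjusted p = 0.689). That interval holds both a fall of the size seen for COL6A1 and a rise of the size seen for HGSNAT under Tg (0.32). Without the high Tg library the log2 fold change was -0.65 (adjusted p = 0.074).

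The spread of this row has a measured counterpart in a second row of the table. BLOC1S1-RDH5 is a read-through transcript that begins in BLOC1S1 and continues into RDH5, the next gene downstream. In GENCODE v44, 357 of the 562 exonic bases of the canonical BLOC1S1 transcript (63.5%) also belong to the read-through gene, while the BLOC1S1 stem-loop shown above does not. RDH5 itself had at most 9 counts in a library. Reads from the shared bases can be given to either row, and how the authors divided them is not given in the sources used here.

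The table shows that the division differed between libraries. In 14 of the 33 libraries both rows hold fractional counts, and in the other 19 both are whole numbers. The BLOC1S1 row took 22.1% to 28.6% of the summed counts in the libraries with whole numbers and 34.6% to 49.2% in those with fractions, without overlap. All 3 vehicle libraries were whole, and of the Tg libraries only the high one was fractional, with a BLOC1S1 share of 49.2%. Within 8 of the 11 conditions the 2 rows were negatively correlated over the 3 libraries. What set the fractions was not tested.

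**Figure D2:**
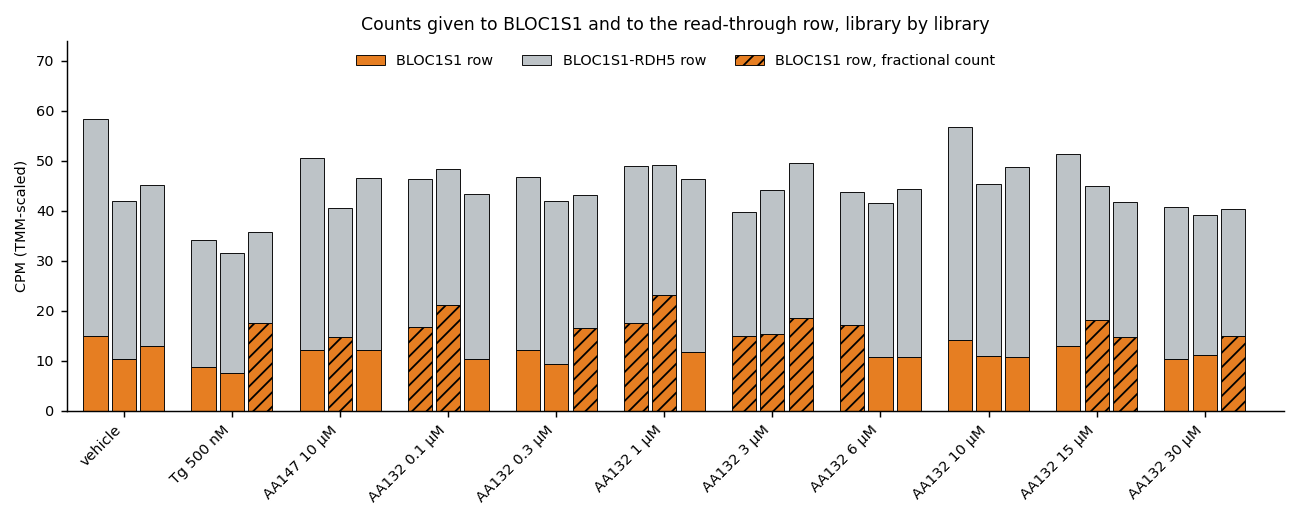
CPM of the BLOC1S1 row (orange) stacked on that of the read-through row (grey, above) for each of the 33 libraries, grouped by condition, with hatching where the BLOC1S1 count is fractional. Hatched libraries give BLOC1S1 34.6% to 49.2% of the bar and plain ones 22.1% to 28.6%, while Tg has the shortest bars (31.6 to 35.8 CPM).

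Adding the 2 rows lowered the median scatter within conditions and is an alternative chosen after the data were seen. The median coefficient of variation within conditions was 6.3% for the sum and 20.1% for BLOC1S1 alone. In vehicle it hardly moved, at 17.8% for the sum and 17.9% for BLOC1S1 alone. The sum was at 58.3, 42.0 and 45.3 CPM in vehicle and at 34.1, 31.6 and 35.8 CPM under Tg, with no overlap. Its log2 fold change was -0.52 (SE 0.101, 95% interval -0.73 to -0.31, adjusted p = 0.000133), so that the fitted level fell by 30.3%. Leaving out 1 Tg or vehicle library in turn kept it called, from -0.63 to -0.37, the smallest fall being without vehicle library 1. The read-through row alone fell by 0.67 on the log2 scale (SE 0.154, adjusted p = 0.000935). The sum holds both transcripts, so a fall of one cannot be told apart from a fall of the other.

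Outside Tg, the mean of the summed rows was 45.9 ± 5.0 CPM under AA147 (SD, n = 3). Over the AA132 doses from low to high it was 46.0 ± 2.46, 44 ± 2.47, 48.1 ± 1.57, 44.5 ± 4.86, 43.1 ± 1.5, 50.2 ± 5.79, 46.0 ± 4.88 and 40.1 ± 0.736 CPM. At 30 µM the libraries (40.7, 39.3 and 40.3 CPM) lay below all vehicle libraries and above all Tg libraries. Neither difference passed the test: the log2 fold change was -0.27 against vehicle (SE 0.101, adjusted p = 0.0956) and 0.25 against Tg (SE 0.102, adjusted p = 0.0649). The value at 30 µM moved to -0.12 without vehicle library 1 and to -0.37, past the threshold (adjusted p = 0.0258), without vehicle library 2. BLOC1S1 alone had means from 11.3 CPM under Tg to 17.5 CPM at 1 µM AA132, and no 2 neighbours in the order of its means were apart. At 1 µM that row took 35.8%, 46.9% and 25.6% of the summed counts, against 25.5%, 24.6% and 28.5% in vehicle. The log2 fold change of the sum at 1 µM was -0.01. The gene lies at chr12:55716038-55720087 on the plus strand.

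HGSNAT encodes the lysosomal acetyltransferase that acts in the stepwise breakdown of heparan sulfate. It was the one gene of the 5 that rose, both under Tg and at the highest AA132 doses. Its level was 19.9, 20.5 and 19.8 CPM in vehicle and 25.0, 24.0 and 26.2 CPM under Tg, a log2 fold change of 0.32 (SE 0.088, adjusted p = 0.00523). It was 22.9, 27.6 and 31.6 CPM at 15 µM AA132 and 27.4, 27.3 and 26.0 CPM at 30 µM. In all 3 conditions each library was above each vehicle library, while the 15 µM libraries were spread over a wider range than the others.

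The rise at 15 µM was 0.45 on the log2 scale (SE 0.088, adjusted p = 0.00207) and at 30 µM 0.42 (SE 0.088, adjusted p = 0.00223). HGSNAT was the one called gene of the 5 at each of these doses, where the calls over all genes amounted to 2.76% for 15 µM, 1.97% being higher, and to 7.05% for 30 µM, 3.86% being higher. With only the 2 conditions compared in the fit, the same values lost their calls (adjusted p = 0.352 and 0.118). All of the other 39 settings tried kept each of the 2 calls. Under AA147 the mean was 22.6 ± 2.52 CPM (SD, n = 3), with libraries that overlapped vehicle and an adjusted p of 0.741.

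Over the AA132 libraries alone, HGSNAT rose with dose. Its means from 0.1 to 10 µM were 20.6 ± 1.19, 20.6 ± 0.141, 20.3 ± 0.769, 22.0 ± 1.01, 23.5 ± 0.63 and 24.1 ± 1.7 CPM (SD, n = 3), and the libraries at 3 µM and above lay beyond all vehicle libraries. The slope was 0.18 log2 units per 10-fold step in dose (SE 0.028, adjusted p = 2.35e-05), and 0.17 without the 30 µM dose. It was the one slope called among the 5 genes. Of the 17554 genes tested, 18.7% had a called slope, and 9.83% of the genes tested had an upward one. The slope of SCARA3 was 0.03 (adjusted p = 0.531), of COL6A1 0.03 (0.449), of SPARC 0.01 (0.746) and of the BLOC1S1 row -0.11 (0.352). For BLOC1S1 with the read-through row added it was -0.02 (0.655). The gene lies at chr8:43140464-43202855 on the plus strand.

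**Figure D3:**
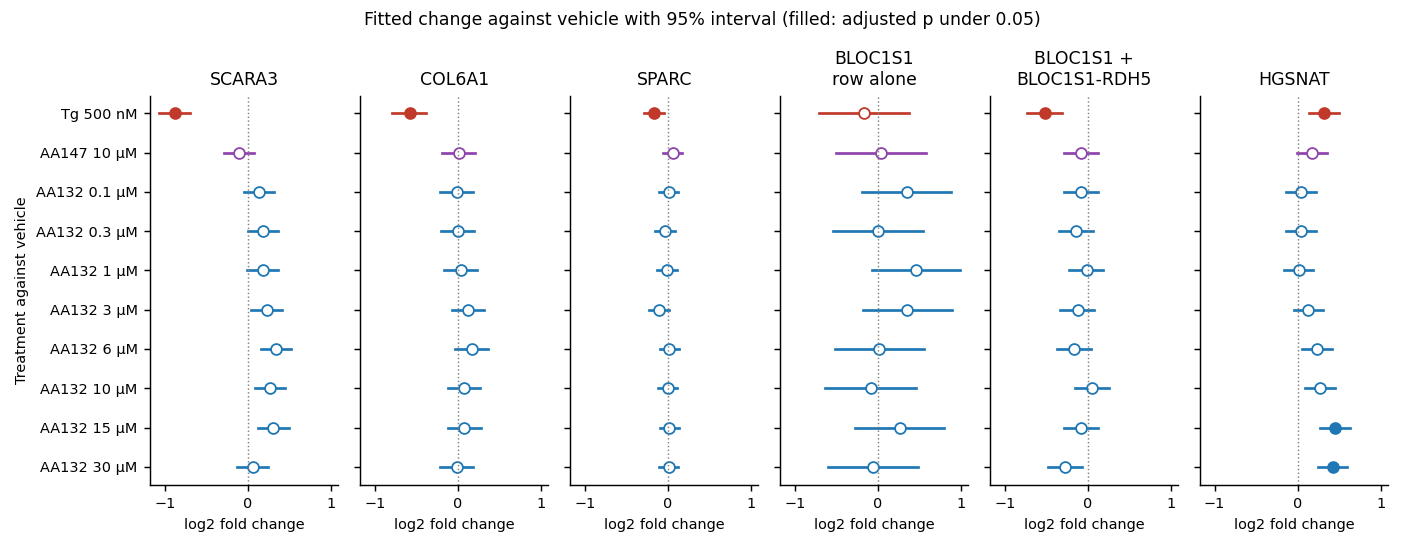
Fitted log2 fold change against vehicle (points) with its 95% interval (lines) for each gene and treatment, with filled points where the adjusted p is under 0.05. Tg is left of 0 for SCARA3 (-0.88), COL6A1 (-0.58), SPARC (-0.16) and the summed BLOC1S1 rows (-0.52), and filled points at AA132 doses occur for HGSNAT alone, at 15 and 30 µM.

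At the other doses and under AA147 none of the 5 genes was called by edgeR. Over all genes, 0.0225% were called under AA147, 0.0% at 0.1, 0.3 and 1 µM AA132, and 0.118%, 1.07% and 1.41% at 3, 6 and 10 µM. Those 3 counts moved with single libraries: the 21, 190 and 250 genes called became 85, 506 and 651 when vehicle library 1 was left out. The 3 µM count was 0 after leaving out its library 1, its library 2 or vehicle library 2. At an unadjusted p under 0.05 there were 0 of the 5 under AA147 and at 0.1, 0.3 and 1 µM, 1 at 3 µM (SCARA3), and 2 each at 6 and 10 µM (SCARA3 and HGSNAT, both higher). Of the 17793 genes tested, 1211 were at that p under AA147 and 796, 981 and 1057 at 0.1, 0.3 and 1 µM. At 3, 6 and 10 µM they were 1635, 2182 and 2292. DESeq2 and limma-voom each called 1 of the 5 at 6 µM (SCARA3) and 0 in the other 6 of these comparisons.

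AA132 and AA147 were tested against each other at the dose they share, 10 µM, and 0.0674% of all genes were called. None of the 5 genes was among them. SCARA3 was at 20.5, 22.0 and 24.3 CPM with AA132 and 17.6, 17.2 and 16.8 CPM with AA147, without overlap, a log2 difference of 0.37 (SE 0.091, adjusted p = 0.12 by edgeR). At an unadjusted p under 0.05 it was the one gene of the 5, and 1425 of the 17793 genes tested were at that p. DESeq2 called SCARA3 (adjusted p = 0.0243) and limma-voom called 0 of the 5. Over 40 alternative settings its adjusted p ran from 0.0243 to 0.888, with 3 past the threshold, the other two being without 10 µM AA132 library 1 (0.0434) or vehicle library 1 (0.0486). The intervals of the log2 difference ran from -0.13 to 0.27 for COL6A1, from -0.18 to 0.06 for SPARC, from -0.09 to 0.27 for HGSNAT and from -0.66 to 0.42 for BLOC1S1.

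Tg at 500 nM and AA132 at 30 µM were also set against each other. The genes that fell under Tg were higher at 30 µM AA132: SCARA3 by 0.94 on the log2 scale (SE 0.094, adjusted p = 1.45e-09), COL6A1 by 0.57 (SE 0.099, 3.23e-05) and SPARC by 0.18 (SE 0.058, 0.0194). The libraries of the 2 conditions did not overlap for any of these 3. In this comparison 29.8% of all genes were called and 14.3% were higher. HGSNAT, called higher in both conditions against the same vehicle libraries, differed by 0.11 with an interval from -0.07 to 0.28 (adjusted p = 0.395). SPARC lost its call without Tg library 1 (adjusted p = 0.0657), without 30 µM library 3 (0.0903) and with no filter on low counts (0.0755), the 3 of 40 settings in which it did.

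The sensor gene, its splicing substrate and a target of the spliced factor were read in the same libraries. ERN1 was at 3.69, 5.54 and 6.97 CPM in vehicle and 13.6, 11.5 and 12.8 CPM under Tg, a rise of 1.22 on the log2 scale (SE 0.172, adjusted p = 8.86e-07). XBP1, counted over both splice forms, went from 82.1, 72.0 and 73.2 CPM to 343.3, 369.9 and 358.0 CPM, a rise of 2.24 (SE 0.102, adjusted p = 3.48e-18). DNAJB9, an ER co-chaperone, went from 9.34, 9.34 and 9.39 CPM to 60.5, 56.7 and 58.1 CPM, a rise of 2.64 (SE 0.089, adjusted p = 1.6e-21). The counts hold no splice junctions, so the cut form of XBP1 was not measured.

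At 30 µM AA132 these readings were smaller than under Tg. XBP1 was at 122.1, 119.4 and 133.7 CPM (log2 fold change 0.72 against vehicle, SE 0.099, adjusted p = 8.62e-06) and DNAJB9 at 15.7, 15.3 and 12.7 CPM (0.64, SE 0.089, adjusted p = 1e-05). ERN1 was at 7.78, 7.08 and 5.94 CPM, with a log2 fold change of 0.36 that did not pass (adjusted p = 0.239). With only the 2 conditions in the fit, DNAJB9 at 30 µM was no longer called (adjusted p = 0.0853). DNAJB9 was called from 6 µM (0.43, adjusted p = 0.00707), but not without 6 µM library 3 (0.0555) or with only the 2 conditions in the fit (0.355), among 40 settings from 0.000648 to 0.355. At 3 µM and under AA147 the XBP1 call turned on the setting. At 3 µM its log2 fold change was 0.48 (adjusted p = 0.0351), and 26 of 40 settings called it, with adjusted p from 1.95e-06 to 0.998. Among those that did not were limma-voom (0.0599) and the fits without 3 µM library 1 (0.398) or 2 (0.337) or vehicle library 2 (0.122) or 3 (0.105). Under AA147 it was also 0.48 (adjusted p = 0.0902), and 6 of 40 settings called it, from 2.25e-06 to 0.889, among them DESeq2 (0.00648) and the fit without vehicle library 1 (0.0354). DNAJB9 under AA147 had 0.23 (adjusted p = 0.625).

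The wider list of XBP1s targets, which work in protein entry, folding, transport and degradation at the ER and overlap with ATF6 targets, moved as a group under Tg. All 15 genes were higher, with a median log2 fold change of 1.35, led by SEC24D at 2.72 (SE 0.086, adjusted p = 4.29e-22). SEC24D is a coat protein of vesicles that leave the ER. At 30 µM AA132, 7 of 15 were higher with a median of 0.24, and 1 of 15 with only the 2 conditions in the fit. Under AA147 edgeR called 0 of 15, with 5 at an unadjusted p under 0.05 and 0 by DESeq2 and by limma-voom. The background shares given above hold here as well.

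Other genes reported as decay substrates were listed from general knowledge, and 7 of the 10 passed the filter. Under Tg 4 were lower and 2 higher, with a median log2 fold change of -0.33. Over all genes tested, 15.0% were lower and 16.2% higher under Tg. BCAM, an adhesion molecule of the cell surface, had the largest fall, from 23.2 ± 5.83 to 6.05 ± 0.512 CPM (SD, n = 3), -1.94 on the log2 scale (SE 0.127, adjusted p = 4.18e-14). PMP22, a membrane protein of peripheral myelin, fell from 38.7 ± 0.562 to 24.5 ± 1.36 CPM, -0.66 (SE 0.085, adjusted p = 1.72e-07). TGOLN2 (-0.47) and TAPBP (-0.33) were lower too, PER1 had 0.08 and did not pass, and the called rises were ERN1 and TNFRSF10B. TNFRSF10B, the death receptor DR5, went from 140.3 ± 3.81 to 203.8 ± 6.24 CPM, 0.54 (SE 0.065, adjusted p = 5e-08).

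At 30 µM AA132 the same list had 1 gene higher (TNFRSF10B, log2 fold change 0.35, SE 0.065, adjusted p = 0.000684) and none lower, with a median of 0.12. Over all genes tested, 3.86% were higher at that dose. With only the 2 conditions in the fit, TNFRSF10B was not called (adjusted p = 0.103). BCAM had -0.21 (adjusted p = 0.312) and PMP22 0.04 (adjusted p = 0.858) there. Under AA147 edgeR called 0 of 7, with 2 at an unadjusted p under 0.05 (1211 of the 17793 genes tested) and 0 by DESeq2 and by limma-voom.

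**Figure D4:**
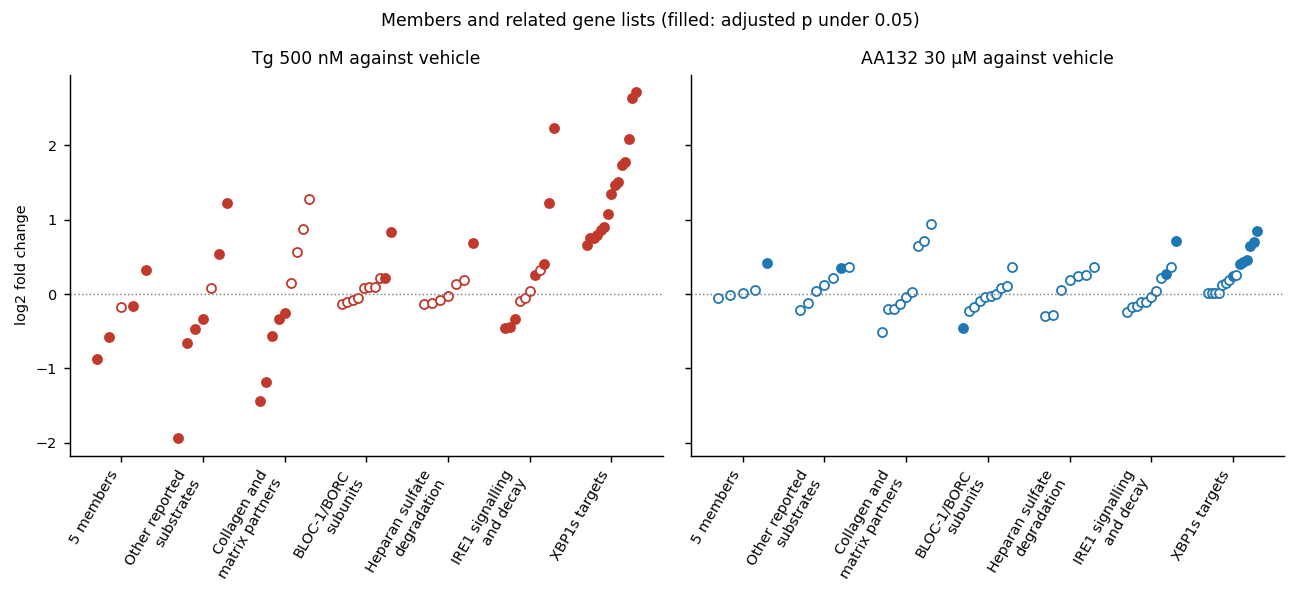
Log2 fold change of the 5 genes and of the tested genes of 6 related lists under Tg (left) and 30 µM AA132 (right), on 1 shared vertical axis, with 1 point per gene and filled points at an adjusted p under 0.05. Under Tg all 15 XBP1s targets are above 0 while BCAM, at -1.94, is the lowest point, and at 30 µM AA132 most points are open and lie closer to 0.

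Of the genes of IRE1 signalling and the decay of cut mRNA, 11 of 12 were tested. Under Tg 4 were higher (XBP1, ERN1, HBS1L and TTC37) and 3 lower (MAP3K5, SKIV2L and TRAF2), with a median of 0.04. The shares over all genes tested were 16.2% higher and 15.0% lower. Of the SKI complex, which feeds cut mRNA to the exosome, the helicase SKIV2L fell by 0.44 on the log2 scale (SE 0.06, adjusted p = 4.35e-07). WDR61 of the same complex had -0.10 (adjusted p = 0.311). The TTC37 call, at 0.25 (SE 0.096, adjusted p = 0.0471), was kept in 12 of 40 settings, with adjusted p from 0.0129 to 0.355, the highest without vehicle library 1. MAP3K5, a kinase that acts after IRE1 and TRAF2, was at -0.46 (SE 0.08, adjusted p = 2.63e-05). The exonuclease XRN1 had 0.32 (adjusted p = 0.142) and the ligase RTCB -0.06 (adjusted p = 0.47), and neither passed. At 30 µM AA132 the called genes were XBP1 and PELO, a factor that rescues stalled ribosomes (0.27, SE 0.075, adjusted p = 0.0235). At that dose 7.05% of all genes tested were called. PELO was not called without 30 µM library 3 (0.128) or vehicle library 3 (0.112), with no filter on low counts (0.0611) or with only the 2 conditions in the fit (0.307), the highest of 40 settings, the lowest being 0.00807. The count of 2 ran from 1 to 5 as single libraries were left out, and DESeq2 called 3.

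The partner genes of each member give its surroundings. Of 10 tested subunits of BLOC-1 and BORC, 2 rose under Tg and none fell, where 16.2% of all genes tested were higher and 15.0% lower. They were BLOC1S3, by 0.83 (SE 0.124, adjusted p = 2.23e-06), and BLOC1S6, by 0.22 (SE 0.075, adjusted p = 0.0209), and the median of the 10 was 0.09. The count was 1 without vehicle library 3, Tg library 2 or Tg library 3, with no filter on low counts and with only the 2 conditions in the fit. At 30 µM AA132 BORCS5 was lower (-0.46, SE 0.134, adjusted p = 0.0327), a call kept in 34 of 40 settings, with adjusted p from 0.0221 to 0.263. It was lost without 30 µM library 1 or 3, without vehicle library 2 or 3, with no filter on low counts and with only the 2 conditions in the fit. DESeq2 called 2 of the 10, and edgeR called 7.05% of all genes tested at this dose.

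Of 9 tested matrix genes related to COL6A1 and SPARC, 5 were lower under Tg, none was higher and 4 did not pass, with a median of -0.26. Among all genes tested, 15.0% were lower and 16.2% higher. The basement membrane collagens COL4A2 and COL4A1 fell by 1.44 (SE 0.078, adjusted p = 3.32e-16) and 1.19 (SE 0.097, adjusted p = 8.58e-12) on the log2 scale, further than COL6A1. SMOC1 fell by 0.56 (SE 0.107, adjusted p = 0.0001) and FSTL1 by 0.33 (SE 0.088, adjusted p = 0.00407), both of the SPARC family. COL6A2, the chain that assembles with COL6A1, was also lower, at -0.26 (SE 0.086, adjusted p = 0.0178), but not without vehicle library 1 (0.289) or Tg library 2 (0.064), among 40 settings from 0.00176 to 0.289. Only 3 of the 9 were called with the 2 conditions alone in the fit, and at 30 µM AA132 edgeR, DESeq2 and limma-voom each called 0, with 2 at an unadjusted p under 0.05. Of the 17793 genes tested, 3644 were at that p at 30 µM.

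Among the class A scavenger receptors related to SCARA3, only COLEC12 of 4 was tested, and it rose by 0.51 under Tg (SE 0.122, adjusted p = 0.00157) where SCARA3 fell. Of 7 enzymes that break down heparan sulfate in the lysosome, as HGSNAT does, 1 was called under Tg, where 31.2% of all genes tested were called. It was ARSG (0.68, SE 0.13, adjusted p = 0.000117), and the median of the 7 was -0.03. The count became 3 when vehicle library 1 was left out and 2 when vehicle library 2 was. At 15 µM AA132 the sulfatase IDS had 0.32 (SE 0.09, adjusted p = 0.0485), a call kept in only 12 of 40 settings, with adjusted p from 0.0119 to 0.595. It was lost without any 1 of the 3 libraries at 15 µM and without vehicle library 1 (0.243). At 30 µM edgeR called 0 of 7, with 5 at an unadjusted p under 0.05 (3644 of the 17793 genes tested), 1 called by DESeq2 and 0 by limma-voom.

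The genes most like each member were found by Pearson correlation of mean log2 CPM over the 11 condition means, which all come from the same 33 libraries. The closest to SCARA3 were PLK2 (r = 0.985), ZNF335 (0.978) and SIRPA (0.973), and to COL6A1 ACTBL2 (0.991), FSTL3 (0.986) and LAMA1 (0.985). SPARC was closest to TSPAN14 (0.928), SAP30L (0.926) and TMEM104 (0.923). HGSNAT was closest to DHRS7B (0.975), TTC17 (0.97) and OTUD1 (0.969), and the BLOC1S1 row to ZNFX1 (0.944), TGFBR3 (0.916) and PGM2L1 (0.899). Between members, SCARA3 and COL6A1 had r = 0.97, with Tg the lowest point of both, and HGSNAT had values from -0.36 to -0.02 with the others. BLOC1S1 entered all these correlations as its own row, not as the sum with the read-through row. The share of reads given to that row differed between libraries, and whether its correlations follow that division was not tested.

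The labelled line was checked against marker genes. Of 10 genes listed for HEK293T, 8 had a mean of at least 1 CPM, and PAX8 was not tested. Their summed level was 1695.5 to 1948.1 CPM in vehicle, 1495.0 to 1536.6 CPM under Tg and 1470.9 to 1592.8 CPM at 30 µM AA132. Of 5 fibroblast markers 1 had a mean of at least 1 CPM, COL1A1, and the list's sum went from 41.5 to 51.2 CPM in vehicle down to 20.2 to 20.7 CPM under Tg and 35.5 to 36.6 CPM at 30 µM. Blood and endothelial markers had none at 1 CPM, with sums of at most 1.83 and 2.23 CPM. All samples are labelled as HEK293T, and the labels name no second cell type. What lay behind the falls of the fibroblast list and of the matrix genes was not tested. In bulk RNA fewer cells of a type and less RNA per cell cannot be told apart.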

How the data were processed

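The authors deposited 1 table of expected counts (estimated reads per gene, fractional in 3.216% of cells), with 3 numbered columns for each of 11 conditions. Per the file headers these are total reads on a linear scale, and per the submitters' processing notes the build is GRCh38.p7. The aligner, counter, annotation and use of strand are not given in the sources used here. A value of 0.009 stands for 0 in 43.51% of cells and was set to 0. Entries sharing a name (98 entries, 45 names) were summed, 28 names turned into dates were kept apart, and counts were rounded. No pair of columns within a condition agreed to within sampling noise (chi-square per degree of freedom 4.48 to 59.4 over 33 pairs), and each column was treated as 1 replicate. A spread beyond sampling noise does not show whether the columns came from separate cultures. The highest values were those of vehicle library 1 against vehicle libraries 2 (59.4) and 3 (46.2), which had 7.47 between them. Library 1 of 10 µM AA132 (36.1 and 33.7) and of AA147 (23 and 22.2) also lay apart from the other libraries of its condition.

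All 11 conditions entered 1 edgeR 4.0.16 quasi-likelihood fit (R 4.3.3) with TMM factors and filterByExpr (17793 genes), and p-values were Benjamini-Hochberg adjusted over all genes per comparison at a threshold of 0.05. The dose slope used the AA132 libraries alone. DESeq2 1.42.0 and limma-voom (limma 3.58.1) were alternatives, with median-of-ratios factors, no filter, a replicate block, only the 2 conditions compared, leave-one-out and added read-through counts. The fits were tested on simulated data. Named genes are the 5 members in every comparison, with ERN1, XBP1 and DNAJB9, up to 4 called genes per list with the largest change under Tg at 1 CPM or more, and the 3 genes most like each member. HBS1L, TTC37, TRAF2, WDR61, XRN1, RTCB, PELO, BORCS5, COL6A2, TGOLN2, TAPBP, PER1 and IDS were named after their values were seen. The members and lists were chosen with earlier results of these data known. Positions and transcripts are from GENCODE v44 and played no part in counting. Genome sequence of SCARA3 and HGSNAT is not shown here.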

Additional observations from a re-analysis of the deposited data

Results flagged for a closer look

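These results are listed because 2 treatments differed from each other when the difference itself was tested, in the edgeR fit at a Benjamini-Hochberg adjusted p under 0.05. Between 30 µM AA132 and Tg, SCARA3 differed by 0.94 on the log2 scale, COL6A1 by 0.57 and SPARC by 0.18, each higher with AA132. In that contrast 29.8% of all genes tested were called and 14.3% were higher. The SPARC call (adjusted p = 0.0194) was lost in 3 of 40 settings. In the same contrast ERN1 (-0.86, adjusted p = 0.000156), XBP1 (-1.51, adjusted p = 7.62e-14) and DNAJB9 (-2.0, adjusted p = 2.08e-18) were lower with AA132. Between AA132 and AA147 at 10 µM, DNAJB9 was higher with AA132 by 0.47 (adjusted p = 0.0177), with 14.2, 15.5 and 15.8 CPM against 11.8, 10.1 and 10.9 CPM. That call was kept in 35 of 40 settings, with adjusted p from 0.000537 to 0.818. Most of the 40 settings left out 1 library from a condition outside this comparison. The call was lost without AA132 library 2 (0.117) or 3 (0.202), without AA147 library 2 (0.209) or 3 (0.147), and with only the 2 conditions in the fit (0.818).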

How the results depend on the processing

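Over all alternatives, 2532 of 2560 member results stayed on their side of the threshold, 10 lost a call and 18 gained one. Most of these results were uncalled to begin with, and most settings left out 1 library, often from a condition outside the comparison. Signs changed in 64, all of results that were not called. At 15 µM AA132 the number of members called was 1, and 2 with median-of-ratios factors, DESeq2 or limma-voom (SCARA3 added). At 6 µM it was 0, and 1 with DESeq2 or limma-voom, and for AA132 against AA147 it was 0, and 1 with DESeq2. With only the 2 conditions in the fit it was 0 at both 15 and 30 µM. Leaving out 1 library gave 0 to 1 at 6 µM, 1 to 2 at 15 µM and 0 to 1 against AA147. With only the 2 conditions in the fit, genes called fell from 5551 to 3073 under Tg, from 1255 to 74 at 30 µM and from 491 to 46 at 15 µM, from 250 to 8 at 10 µM, from 190 to 25 at 6 µM, from 21 to 0 at 3 µM, from 4 to 0 under AA147 and from 12 to 0 for AA132 against AA147. In the same 2-condition fits XBP1s targets called were 1 at 30 µM (7 with all conditions), 2 at 15 µM (6), and 0 at 6 and 10 µM (3 each). With DESeq2 the genes called were 763 at 15 µM, 465 at 10 µM, 348 at 6 µM, 63 at 3 µM, 25 under AA147 and 55 for AA132 against AA147. With no filter on low counts they were 411 at 10 µM, 360 at 6 µM, 153 at 3 µM, 82 under AA147 and 98 for AA132 against AA147, and 33, 25 and 46 at 0.1, 0.3 and 1 µM, where edgeR with the filter called 0. With limma-voom they were 5 at 3 µM. The dose slope called 3286 genes, and 2046 without 30 µM. At 30 µM they were 700 without its library 1, 737 without its library 2 and 2017 without vehicle library 1. Leaving out 1 library in turn gave 0 to 85 at 3 µM, 95 to 506 at 6 µM, 156 to 651 at 10 µM, 267 to 920 at 15 µM, 0 to 15 under AA147 and 0 to 77 for AA132 against AA147. Adding the column number as a replicate block changed no member call, though IDS at 15 µM (adjusted p = 0.0618) and TTC37 under Tg (0.0566) were not called with it, and gave 4 members called under Tg, as without it, and 5572 genes in place of 5551. Columns with the same number did not deviate together (r from -0.147 to 0.183 over 165 pairs, and 13 of 33 libraries closest to their own number). Causes were not tested.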
